A study of Mus musculus with 9 samples.

Results

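The genes described here encode the protein components of the cytosolic ribosome, measured in the livers of mice with and without antibiotic depletion of the gut bacteria. They were chosen by a rule on name and biotype, with earlier results of these data known. The rule took protein-coding genes with the symbol Rpsa, Rplp0, Rplp1 or Rplp2, or Rpl or Rps followed by a number and at most 1 trailing letter a, l, x or y. This gave 80 of the 54393 genes in the count table. Of these, 46 encode proteins of the large subunit, 31 proteins of the small subunit and 3 the acidic stalk of the large subunit. The name rule also matched 3 pseudogenes, which were left out.

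RNA was sequenced from whole liver of mice whose strain is labelled C56Bl/6j, all fed AIN-76a, a purified diet. The control group had no antibiotics and 5 libraries (numbered 1 to 5). The antibiotics group received antibiotics of a kind the gut does not absorb and had 4 libraries (numbered 1, 2, 3 and 5). The labels give no age, sex, dose or duration, and do not say that each library is a separate mouse, so the p-values rest on the spread among libraries, which may be partly technical. In bulk liver, fewer cells of a type and less RNA per cell cannot be told apart.

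Ribosomal proteins are made in the cytoplasm, carried into the nucleolus and built onto ribosomal RNA to form a small subunit, which reads the messenger RNA, and a large subunit, which joins the amino acids. Their messenger RNAs belong to the TOP class, whose 5′ ends begin with a C followed by a run of pyrimidines (C or T in the DNA). Through this run the kinase mTORC1, by way of the RNA-binding protein LARP1, controls mainly how well these messages are translated, so that their abundance need not follow protein synthesis. Liver is among the organs that make the most protein for export, and its ribosomal protein messages are abundant.

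The start-site sequences below show this feature in members that recur in the results. Each line is the 30 bases around the RefSeq start site (GRCm38.p6), 15 before it and 15 from it onward, on the strand of the transcript. Capitals mark a run of at least 8 pyrimidines that begins with C. Rps18 (chr17:33955651-33955680, minus strand), Rplp2 (chr7:141447636-141447665, plus), Rpl7a (chr2:26910792-26910821, plus), Rps6 (chr4:86857353-86857382, minus) and Rps27 (chr3:90213634-90213663, minus) hold such a run, and Rpl24 (chr16:55966260-55966289, plus) does not.
Rps18: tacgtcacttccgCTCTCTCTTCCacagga
Rplp2: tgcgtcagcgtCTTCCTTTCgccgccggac
Rpl7a: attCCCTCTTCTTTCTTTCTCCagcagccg
Rps6: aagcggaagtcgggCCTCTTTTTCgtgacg
Rps27: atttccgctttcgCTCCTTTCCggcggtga
Rpl24: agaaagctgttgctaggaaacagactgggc

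RefSeq windows were matched by symbol for 60 of the 80 genes. A run of this kind stood in the window of 25 of them (41.7%), against 10.7% of the 26965 other genes in the table and 12.2% of the 10590 other genes that were tested. The stricter form, a C exactly at the annotated start and pyrimidines at the next 4 bases, was present in 13 ribosomal protein genes (21.7%) and in 2.97% of the other genes. Of the 69 genes of the mitochondrial ribosome with a window, 8 held the longer run (11.6%) and 0 the stricter form. The search read the transcript's strand only, and a match or its absence describes these letters at the annotated start and not the start used in these livers.

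Before the group comparison, 3 features of the libraries bear on every value below. Library totals ran from 15422891 to 59179622 estimated counts. Antibiotics libraries 1, 2 and 3 were shallower than every control, and antibiotics library 5 was the deepest of all. Control library 5 held the highest control value for 66 of the 77 tested ribosomal protein genes, and the highest of all 9 libraries for 60 of them, while it was the highest of 9 for 20.1% of all tested genes. The hepatocyte markers summed to 81100 to 98500 CPM (normalised read counts, scaled to a common library size) in the 9 libraries. Most of that was Alb, at 65300 CPM in controls and 60000 CPM with antibiotics. The sum thus says little of the other markers, such as Tat, at 656 to 2940 CPM over the controls. The 9 exocrine pancreas markers summed to 10.4 to 21.2 CPM. Almost all of this was Cela1 (12.4 CPM in controls and 14.8 CPM with antibiotics), with Cela2a at 0.391 and 0.411 CPM. The defining genes Prss1, Prss2, Cpb1, Pnlip and Ctrb1 were at 0 in every library.

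Ribosomal protein messages took nearly the same share of the liver transcriptome in both groups. They made up 1.04%, 1.01%, 0.972%, 1.04% and 1.16% of all counts in control libraries 1 to 5, and 0.996%, 0.937%, 0.946% and 1.15% in antibiotics libraries 1, 2, 3 and 5. The means were 1.04% ± 0.0701 (SD, n = 5) and 1.01% ± 0.101 (SD, n = 4). The groups overlapped, and the high value of each group was its library numbered 5.

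Of the 80 genes, 77 had enough counts to be tested, and 0 of them passed. By edgeR (quasi-likelihood test, Benjamini-Hochberg adjusted p under 0.05), 398 of 14873 tested genes differed between the groups, a background of 2.68% (1.63% higher and 1.05% lower with antibiotics). The smallest adjusted p of a ribosomal protein gene was 0.209, for Rpl24. At an unadjusted p under 0.05 there were 3 of 77 (3.9%), Rps27 higher and Rpl24 and Rpl7a lower, against 18.5% of all tested genes (9.6% higher and 8.87% lower). DESeq2 called 6.56% of all genes and limma-voom 2.78%, and both called 0 ribosomal protein genes. At an unadjusted p under 0.05 they gave 5 and 3 of the 77. The control and antibiotics values did not overlap for 1 gene, Rpl7, named after its values were seen, while 8.88% of all tested genes had no overlap (4.59% higher and 4.29% lower).

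The fitted differences were small and well bounded. Apart from Rps27, the log2 fold changes (antibiotics over control) ran from -0.24 for Rpl10a to 0.21 for Rplp1. The median size of the log2 fold change, ignoring its sign, was 0.078, against 0.15 over all tested genes and 0.11 over the 3655 tested genes at or above the 10th percentile of the members' CPM. The median standard error (SE) was 0.089 for the members, 0.13 over all tested genes and also 0.089 over those 3655 genes. The 95% interval of the difference lay within 0.5 log2 units on either side of 0, a 1.41-fold change, for 72 of the 77 genes. It did so for 52.8% of all tested genes, a background not matched for abundance. The 5 genes whose interval reached past that limit were Rpl10a, Rpl36, Rplp1, Rps12 and Rps27. Changes larger than 1.41-fold were thus outside the interval of each of the 72, while smaller ones could not be told from 0 after adjustment.

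Most estimates lay a little below 0: 66 of the 77 (85.7%), against 51.4% of all tested genes. The median log2 fold change was -0.07, and -0.01 over all tested genes. It was -0.08 for the large subunit (40 of 43 below 0), -0.07 for the small subunit (25 of 31 below 0) and 0.08 for the 3 stalk genes (1 of 3 below 0). The genes varied together between libraries, as described next, so this count is not 77 separate observations. Without control library 5 the median was -0.02, with 48 of 77 below 0, and without antibiotics library 5 it was -0.11, with 73 below 0. Without antibiotics library 2 it was -0.03, with 55 below 0. With both libraries numbered 5 left out, 61 were below 0 and the median was -0.07.

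**Figure D1:**
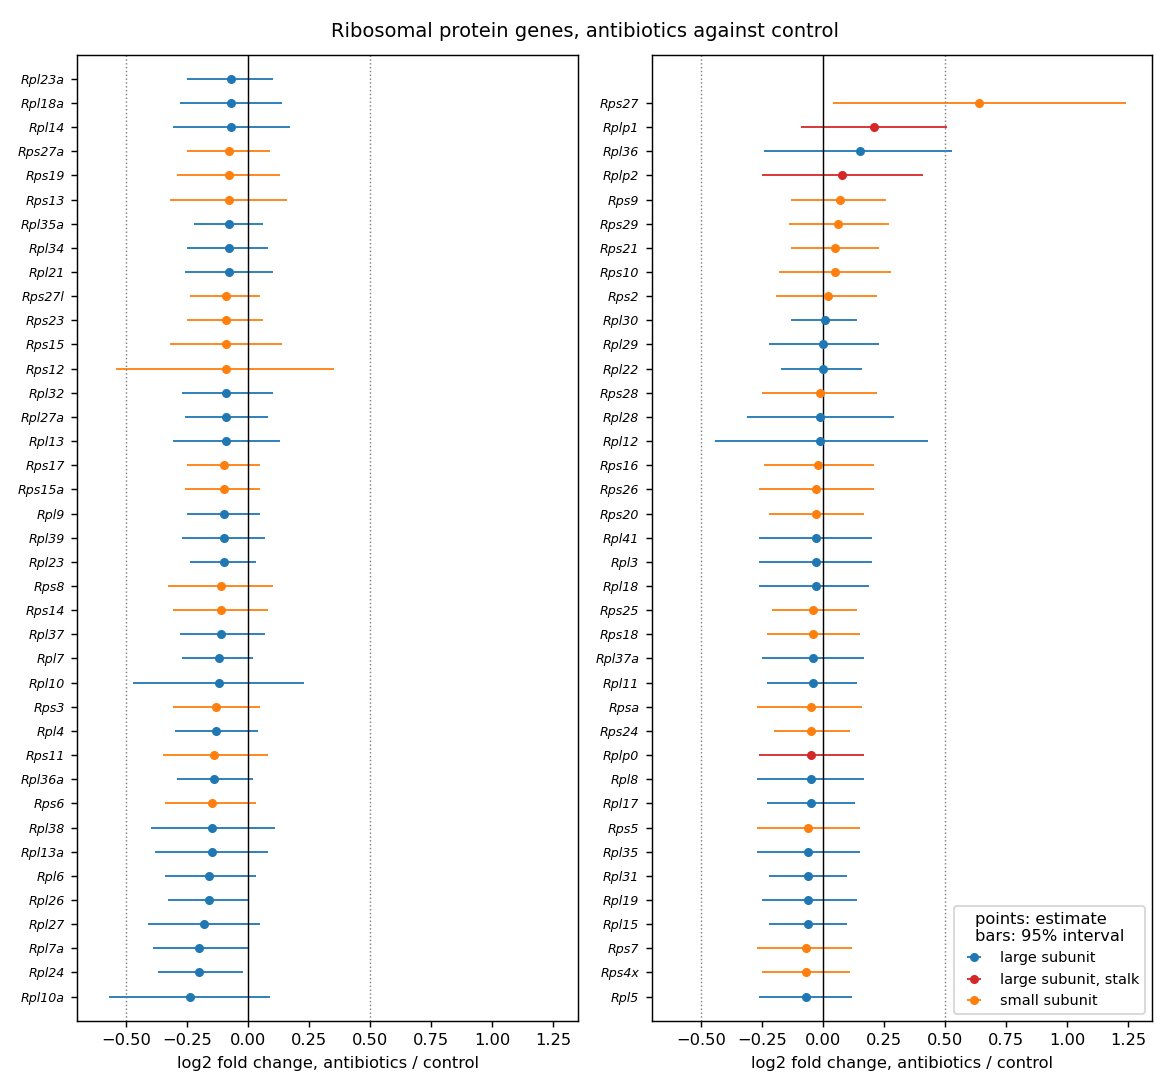
Log2 fold change (antibiotics over control, horizontal axis) of the 77 tested ribosomal protein genes, each on its own line, with the 95% interval as a bar and dotted lines at 0.5 log2 units on either side of 0. Points are coloured by subunit, 66 of 77 lie below 0, and Rps27 stands apart at 0.64 with the widest interval.

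The joint movement between libraries was larger than the difference between groups. The mean log2 CPM of the 77 genes, relative to the control mean, was -0.01, 0.00, -0.12, -0.08 and 0.20 in control libraries 1 to 5, and -0.03, -0.16, -0.10 and 0.07 in antibiotics libraries 1, 2, 3 and 5. The SD over the controls was 0.123, and the antibiotics mean lay 0.0557 below the control mean. Antibiotics library 2 was the lowest of all 9 for 38 of the 77 genes, against 9.98% of all tested genes. Within the antibiotics group, library 5 was the highest for 63.

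Most members followed this common movement. Correlated with the mean of the 77 genes after the group means were removed, 69 of them had an r above 0.5 over the 9 libraries, with a median of 0.87, where each gene is itself part of that mean. The large and small subunits moved alike: in control library 5 both stood at 0.20, and in antibiotics library 2 at -0.17 and -0.15. The row of Rpl5, a carrier of 5S ribosomal RNA, was the exception with an r of -0.69. Rpl23 (0.17), Rpl36a (0.25), Rpl31 (0.25) and Rpl22 (0.27) followed the common movement weakly. These r values cover the members' own rows only. For Rpl5, 94.7% of the counts on gene and near-identical copies (described below) stood on copies, for Rpl31 72.3% and for Rpl36a 69.0%. For Rpl23 it was 36.6% and for Rpl22 0%. The spread of a member over the controls was larger the higher the GC content of its transcript (Spearman's rho 0.60 across the 77 genes, which share the 9 libraries).

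**Figure D2:**
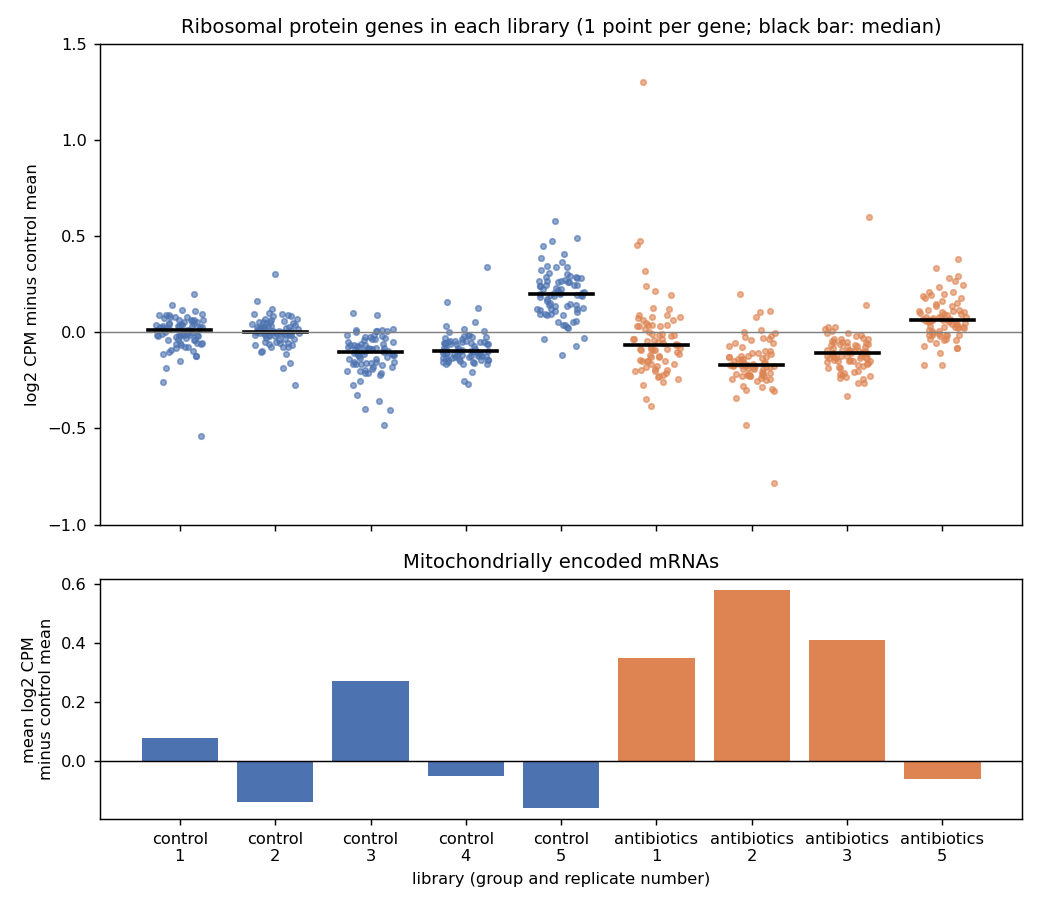
Upper panel: log2 CPM of the 77 ribosomal protein genes minus the gene's control mean, 1 point per gene in each of the 9 libraries, with the median as a black bar. Lower panel: the mean of the same quantity over 13 mitochondrially encoded mRNAs, which reaches 0.58 in antibiotics library 2, the library that holds the lowest of the 9 values for 38 of the 77 ribosomal protein genes.

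The 13 mRNAs encoded by mitochondrial DNA were read beside these values, and in most libraries stood on the other side of the control mean. Their mean relative to the control mean was 0.08, -0.14, 0.27, -0.05 and -0.16 in the controls and 0.35, 0.58, 0.41 and -0.06 in antibiotics libraries 1, 2, 3 and 5. All 13 had a log2 fold change above 0 (median 0.32), and 0 passed the test (4 at an unadjusted p under 0.05). Their share of all counts was 4.34% to 6.55% in controls and 5.19% to 7.35% with antibiotics. Macrophage markers lay below 0 in 11 of 11 (median -0.36, 0 passing and 0 at an unadjusted p under 0.05), with summed levels of 226 to 675 CPM in controls, the highest in control library 2, and 236 to 298 CPM with antibiotics. The defining Kupffer cell gene Clec4f was at 77.4 ± 31.2 CPM in controls (SD, n = 5) and 60.9 ± 3.30 CPM with antibiotics (SD, n = 4). The part of either in the ribosomal protein values was not tested.

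Among proteins of the large subunit, Rpl24 had the smallest p. Rpl24, which helps to bridge the subunits (chromosome 16, 55966275 to 55971435, plus strand, GRCm38), was at 143, 145, 132, 131 and 155 CPM in the controls and at 119, 114, 122 and 137 CPM with antibiotics. Antibiotics libraries 1 to 3 lay below every control, and antibiotics library 5 lay within the control range. The log2 fold change was -0.20 ± 0.08 (SE; 95% interval -0.37 to -0.02), with an edgeR adjusted p of 0.209. Its start site is the one above with no pyrimidine run.

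Rpl7a, a protein of the large subunit's surface (chromosome 2, 26910764 to 26913318), was at 322, 327, 303, 288 and 360 CPM in the controls and 283, 252, 271 and 311 CPM with antibiotics. Again library 5 was the antibiotics library inside the control range. Its log2 fold change was -0.20 ± 0.09, with an edgeR adjusted p of 0.269. Rpl7a carries a long pyrimidine run at its annotated start. Over all matched members the median log2 fold change was -0.06 for the 25 with a run and -0.08 for the 32 tested ones without. The part of the run in these changes was not tested.

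Rpl26, which lies near the opening of the tunnel through which the new protein leaves, was at 194, 187, 172, 171 and 196 CPM and then 157, 157, 161 and 181 CPM. The groups overlapped through antibiotics library 5 alone. Its log2 fold change was -0.16 ± 0.08 (edgeR adjusted p = 0.278). Rpl6, a protein of the large subunit, went from 271 ± 24.4 (SD, n = 5) to 243 ± 17.5 CPM (SD, n = 4), a log2 fold change of -0.16 ± 0.09 (edgeR adjusted p = 0.357). Rpl36a, a component near the exit site for transfer RNA, had 22.2, 20, 21.3, 21.6 and 22.4 CPM and then 17.8, 19.5, 20.3 and 20.4 CPM. Its overlap was narrow, with 2 antibiotics libraries above the lowest control, at a log2 fold change of -0.14 ± 0.07 (edgeR adjusted p = 0.323).

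Rpl7 was the gene without overlap. It was at 310, 288, 280, 281 and 299 CPM in the controls and 263, 267, 267 and 276 CPM with antibiotics. The gap between the groups was small, and the log2 fold change was -0.12 ± 0.07 (95% interval -0.27 to 0.02, edgeR adjusted p = 0.359).

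The stalk genes encode the flexible arm that recruits elongation factors: Rplp0 forms its base, and Rplp1 and Rplp2 its acidic tips. Rplp1 was at 170, 184, 153, 189 and 238 CPM in the controls and 257, 212, 172 and 224 CPM with antibiotics. Antibiotics library 1 was the highest of all, and the other antibiotics libraries lay inside the control range. Its log2 fold change was 0.21 ± 0.14 (95% interval -0.09 to 0.51, edgeR adjusted p = 0.449). Rplp2 was at 78.9, 89.0, 69.9, 86.2 and 122 CPM and then 104, 85.9, 78.9 and 107 CPM, a log2 fold change of 0.08 ± 0.15. Control library 5 was above every antibiotics library for Rplp2. Rplp0 was at 365, 366, 354, 346 and 458 CPM and then 364, 341, 352 and 407 CPM, with a log2 fold change of -0.05 ± 0.10 and control library 5 well above the rest.

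In the small subunit, Rps2, which lines the channel where messenger RNA enters, was at 481, 494, 460, 475 and 598 CPM in the controls and 511, 486, 493 and 538 CPM with antibiotics. Its log2 fold change was 0.02 ± 0.09, and leaving out control library 3 or antibiotics library 5 gave -0.01. Rps18, of the subunit's head, was at 212 ± 14.8 CPM (SD, n = 5) and 206 ± 20.6 CPM (SD, n = 4), a log2 fold change of -0.04 ± 0.09. Rps6, the classic phosphorylation target of S6 kinase downstream of mTORC1, was at 84.9 ± 8.60 and 76.3 ± 4.53 CPM, with a log2 fold change of -0.15 ± 0.08 (edgeR adjusted p = 0.362). The estimates of these 3 thus ran from 0.02 to -0.15, and 0 of them passed.

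Rps27 had the largest estimate and the least data. It encodes a zinc-finger protein of the small subunit, and its row held 37, 60, 25, 39 and 35 counts in the controls and 39, 19, 28 and 82 with antibiotics, or 0.913, 1.25, 0.766, 0.884 and 1.28 CPM and then 2.55, 1.06, 1.55 and 1.32 CPM. Antibiotics library 1 stood high and antibiotics library 2 lay among the controls. The log2 fold change was 0.64 ± 0.27 (95% interval 0.04 to 1.24), with an edgeR adjusted p of 0.241. Its row held few counts beside those of a copy with the same coding sequence, given next.

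Ribosomal protein genes have many processed copies in the genome, and reads from a message and its copy can be assigned to either. Transcripts of other genes that matched a member's transcript at 95% identity or more over at least 100 nt, with at least 50 nt in its coding sequence, were counted as near-identical copies. There were 609 of them, 598 annotated as pseudogenes, and 75 of the 77 tested members had at least 1. The first 60 coding bases of Rps27 (chromosome 3) and of the protein-coding copy Rps27rt (chromosome 9, 114982366 to 114982739) are shown with those of the paralog Rps27l (chromosome 9, 66946086 to 66949516), where capitals mark the bases that differ from Rps27. Rpl12 is shown with its copy Gm10275 (chromosome 10, 29698746 to 29699380). All are from the GENCODE M21 transcripts.
Rps27: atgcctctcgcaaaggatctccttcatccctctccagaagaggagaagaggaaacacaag
Rps27rt: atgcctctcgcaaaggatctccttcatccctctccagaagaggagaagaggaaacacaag
Rps27l: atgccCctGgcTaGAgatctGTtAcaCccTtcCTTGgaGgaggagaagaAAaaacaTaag
Rpl12: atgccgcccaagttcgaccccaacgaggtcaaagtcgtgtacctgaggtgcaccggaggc
Gm10275: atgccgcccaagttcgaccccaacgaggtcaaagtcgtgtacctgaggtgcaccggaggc

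Rps27 and Rps27rt had 0 differences over their 252 coding bases, and Rps27l differed from Rps27 at 60 of the same 252. Rpl12 and Gm10275 had 0 differences over 495 bases. A read inside these stretches cannot be given to a locus by its sequence.

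For 4 members more than 90% of the summed counts stood on copies. Rps27 had 98.7% on copies, of which Rps27rt held 94.0 CPM, and Rps27 itself held 1.28 CPM over the 9 libraries. Rpl12, which sits at the base of the stalk, had 96.7%, with Gm10275 at 146 CPM and its own row at 5.37 CPM. For Rps12, a small-subunit protein, it was 95%, with Rps12l1 at 109 CPM, and for Rpl5 it was 94.7%, with Gm15500 at 283 CPM. Rpl10, among the last proteins added to the large subunit, had 88.6%, with Rpl10-ps3 at 253 CPM and Rpl10-ps1 at 238 CPM. More than 50% stood on copies for 23 of the 77 members, and less than 10% for 41.

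**Figure D3:**
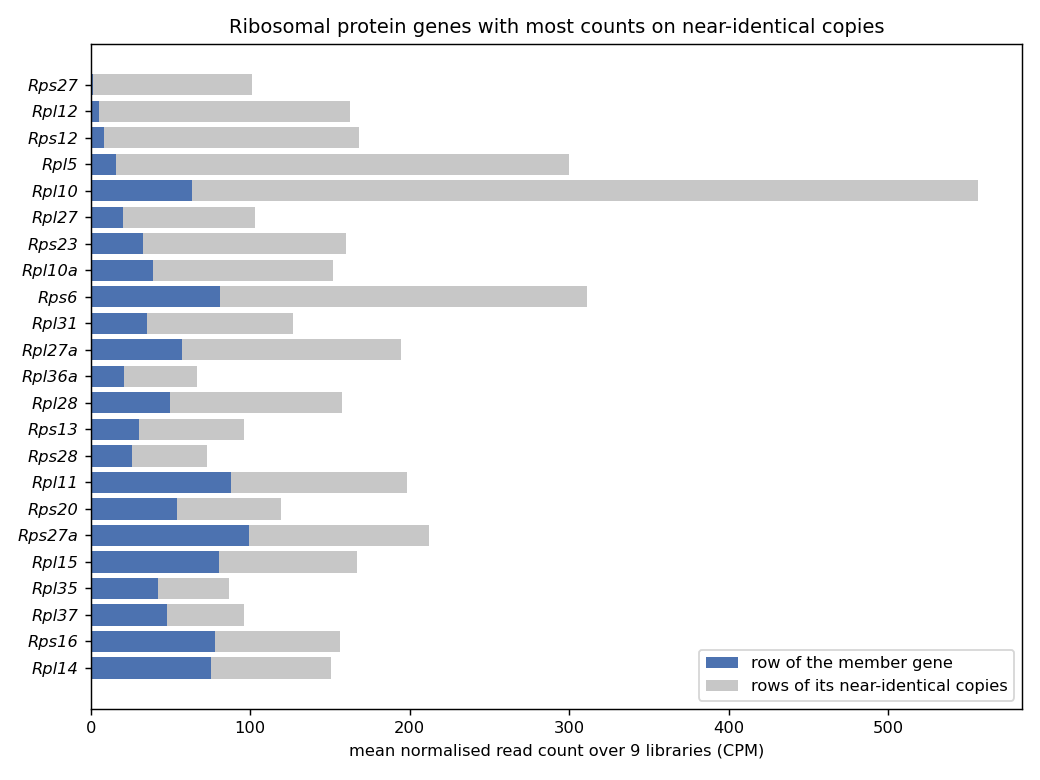
Mean normalised read count (CPM over 9 libraries) on the row of each of the 23 ribosomal protein genes with over 50% of the summed counts on copies, in blue, and on the rows of its near-identical copies, in grey. The bar of Rps27 is almost wholly grey (98.7%), and that of Rpl10 is the longest.

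Summing the copies into each member changed single estimates more than it changed the group picture. For Rps27 the log2 fold change went from 0.64 to -0.07 ± 0.08 (edgeR adjusted p = 0.717), and the row of Rps27rt alone gave -0.05 ± 0.08. Rpl10a, which forms the mobile L1 stalk, went from -0.24 ± 0.15 to -0.06 ± 0.10, and Rpl12 from -0.01 ± 0.20 to -0.15 ± 0.11. With copies summed, 0 of the 77 passed, 0 had an unadjusted p under 0.05, and the median stayed at -0.07. For the 41 members with less than 10% on copies, the median was -0.07 and the range -0.20 to 0.21, with 0 passing. Of the copies themselves, 93 of the pseudogenes and 6 of the others had enough counts to be tested, and 0 of either passed (3 and 0 at an unadjusted p under 0.05).

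Levels per transcript length differed widely between members. In CPM per kilobase of transcript on the members' own rows, Rps2 (505), Rplp1 (401) and Rps18 (374) were highest, and Rps27 (3.72), Rpl12 (4.32) and Rpl5 (7.82) lowest. From the 10th to the 90th percentile the members alone spanned 39.6 to 301 CPM per kilobase, a 7.61-fold range, and with copies summed 122 to 335, a 2.74-fold range. With copies summed Rpl10 was highest, at 697 CPM per kilobase, against 79.5 on its own row. On their own rows, the 3 lowest members were all among the 4 with most counts on copies. The lengths are those of 1 annotated transcript per gene, and for Rps15a (5130 nt) and Rps20 (3706 nt) that transcript is long, which lowers their value.

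Several ribosomal proteins have paralogs with tissue-restricted expression. Rpl10l, known from testis, had 0 counts in the 9 libraries, which allows up to 0.00986 CPM over their 304233956 counts (3 counts, counting error only). Rpl39l, also known from male germ cells, had 4 counts in all, and Rpl3l, known from skeletal and heart muscle, had 11. Neither had more than 2 counts in a library, and none of these 3 was tested. Their widely expressed partners Rpl10 (65.9 ± 15.4 CPM in controls, 60.5 ± 9.74 with antibiotics), Rpl39 (81.5 ± 5.63 and 76.0 ± 6.70) and Rpl3 (314 ± 34.0 and 308 ± 37.6; SD, n = 5 and 4) were all abundant. The log2 fold changes of Rpl10, Rpl39 and Rpl3 were -0.12 ± 0.16, -0.10 ± 0.08 and -0.03 ± 0.11, with Rpl3 at 0.01 once its copies were summed in.

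Other paralogs were expressed beside their partners. Rps27l, a p53-responsive relative of Rps27, was at 93.4, 88.0, 83.7, 80.6 and 93.4 CPM in the controls and 83.7, 80.4, 83.7 and 81.4 CPM with antibiotics (log2 fold change -0.09 ± 0.07, edgeR adjusted p = 0.479). The antibiotics values sat closely together at the low end of the control range. Rpl22 was at 75 ± 7.11 and 74.9 ± 2.21 CPM and its paralog Rpl22l1, outside the naming rule, at 35.5 ± 6.59 and 35.6 ± 2.76 CPM. The X-linked Rps4x was at 282 ± 19.0 and 269 ± 21.2 CPM, and Rps4l, annotated as a transcribed pseudogene, at 9.98 ± 2.84 and 10.6 ± 1.63 CPM. The log2 fold changes were 0.00 for Rpl22l1, -0.07 ± 0.08 for Rps4x and 0.09 ± 0.19 for Rps4l.

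A few ribosomal proteins carry names the rule does not reach, and 0 of those given here passed. Rpl36al, a close relative of Rpl36a, went from 118 ± 13.1 to 103 ± 4.69 CPM (log2 fold change -0.19 ± 0.08, edgeR adjusted p = 0.253), the smallest p among them. Fau, made as a fusion of a ubiquitin-like domain with a small-subunit protein, was at 52.1 ± 7.21 and 50.3 ± 7.40 CPM (log2 fold change -0.05 ± 0.12). Rps3a1 went from 293 ± 13.3 to 264 ± 12.9 CPM (-0.15 ± 0.07, edgeR adjusted p = 0.271), and the scaffold Rack1 from 283 ± 27.7 to 254 ± 16.6 CPM (-0.15 ± 0.09, edgeR adjusted p = 0.382).

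The genes that make and control ribosomes were set beside them, by lists of known function. Of 42 ribosome assembly factors 0 passed (median log2 fold change -0.08). At an unadjusted p under 0.05 there were 8 (19.0%), near the 18.5% of all tested genes. The assembly factor with the smallest p, the nucleolar GTPase Gnl3, had 25.1 ± 1.82 CPM in controls and 20.1 ± 2.11 CPM with antibiotics (-0.32 ± 0.09, edgeR adjusted p = 0.0715). Of 18 RNA polymerase I subunits and factors, which make ribosomal RNA, 0 passed (median 0.07, 3 unadjusted or 16.7%). In that list 11 estimates lay above 0 and 7 below. The 4 with the smallest p lay above 0: Taf1b (0.45 ± 0.15), Polr2h (0.30 ± 0.10), Taf1c (0.47 ± 0.17) and Ubtf (0.14 ± 0.07). Their edgeR adjusted p were 0.132, 0.152, 0.173 and 0.310, and Taf1c was low, at 1.41 and 1.95 CPM. The 18 elongation factors and other TOP messages, the class nearest to the ribosomal proteins, had a median of -0.08 with 0 passing (1 unadjusted or 5.56%). In that list Nap1l1, a histone chaperone, was at 62.3, 60, 64.2, 60.1 and 65.6 CPM and then 48.5, 52.1, 55.8 and 54.0 CPM. Those groups did not overlap, and the log2 fold change was -0.25 ± 0.06 (edgeR adjusted p = 0.0683).

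Among 31 translation initiation factors 1 fell and 0 rose (median -0.09), where 2.68% of all tested genes passed. At an unadjusted p under 0.05 there were 7 (22.6%), near the 18.5% of all tested genes. This was Eif2s2, the beta subunit of the factor that brings the initiator transfer RNA, at 86.2, 85.0, 81.2, 87.7 and 84.6 CPM in the controls and 69.9, 71.9, 70.7 and 62.3 CPM with antibiotics. Every antibiotics library lay below every control, and the log2 fold change was -0.31 ± 0.06 (edgeR adjusted p = 0.0346). This call was lost when control library 1, 2 or 4 or any 1 of the antibiotics libraries was left out (edgeR adjusted p = 0.0543 to 0.098). Eif3a, a core subunit of the factor that loads messages onto the small subunit, had -0.32 ± 0.09 (edgeR adjusted p = 0.0723).

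Among 26 genes of mTORC1, LARP1 and MYC control, 2 fell and 0 rose (median -0.05), where 1.05% of all tested genes were called lower. At an unadjusted p under 0.05 there were 8 (30.8%), against 18.5% of all tested genes. Sesn2, a leucine-sensing inhibitor of mTORC1 that is induced by stress, was at 11.3, 9.52, 12.8, 13.4 and 10.1 CPM in the controls and 6.60, 8.08, 7.07 and 7.30 CPM with antibiotics, a log2 fold change of -0.65 ± 0.12 (edgeR adjusted p = 0.0230). Mycn, a MYC family transcription factor, was low throughout, at 1.30 ± 0.331 CPM (SD, n = 5) and 0.513 ± 0.138 CPM (SD, n = 4), a log2 fold change of -1.26 ± 0.27 (edgeR adjusted p = 0.0393). Both had no overlap between the groups. The call of Sesn2 was lost without antibiotics library 1, 3 or 5 (edgeR adjusted p = 0.0736 to 0.076). That of Mycn was lost without control library 1, 3 or 4 or any 1 antibiotics library (edgeR adjusted p = 0.0527 to 0.109), and by limma-voom (adjusted p = 0.0556). Eif4ebp3, an inhibitor of cap-dependent initiation, was at 35.8 ± 11.9 and 71.0 ± 16.7 CPM, with a log2 fold change of 0.99 ± 0.25 that did not pass (edgeR adjusted p = 0.0605).

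Of 18 tested genes of ribosome stalling and ribosomal stress 0 passed (median -0.11), and 4 had an unadjusted p under 0.05 (22.2%, against 18.5% of all tested genes). This list also holds the ribosomal protein genes Rpl5, Rpl11 and Rps27l, none of them among those 4. Mdm2, the p53 ligase that free Rpl5 and Rpl11 bind, was at 21.1 ± 2.13 and 17.2 ± 1.69 CPM (log2 fold change -0.30 ± 0.10, edgeR adjusted p = 0.125). Of Rpl5 and Rpl11 themselves, Rpl11 was at 89.4 ± 9.02 and 86.6 ± 5.89 CPM, and Rpl5 at 16.3 ± 1.18 and 15.6 ± 1.59 CPM on its own row. The 78 proteins of the mitochondrial ribosome, encoded in the nucleus but built into a separate ribosome, had a median of 0.01 with 0 passing (3 unadjusted or 3.85%) and 38 below 0.

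**Figure D4:**
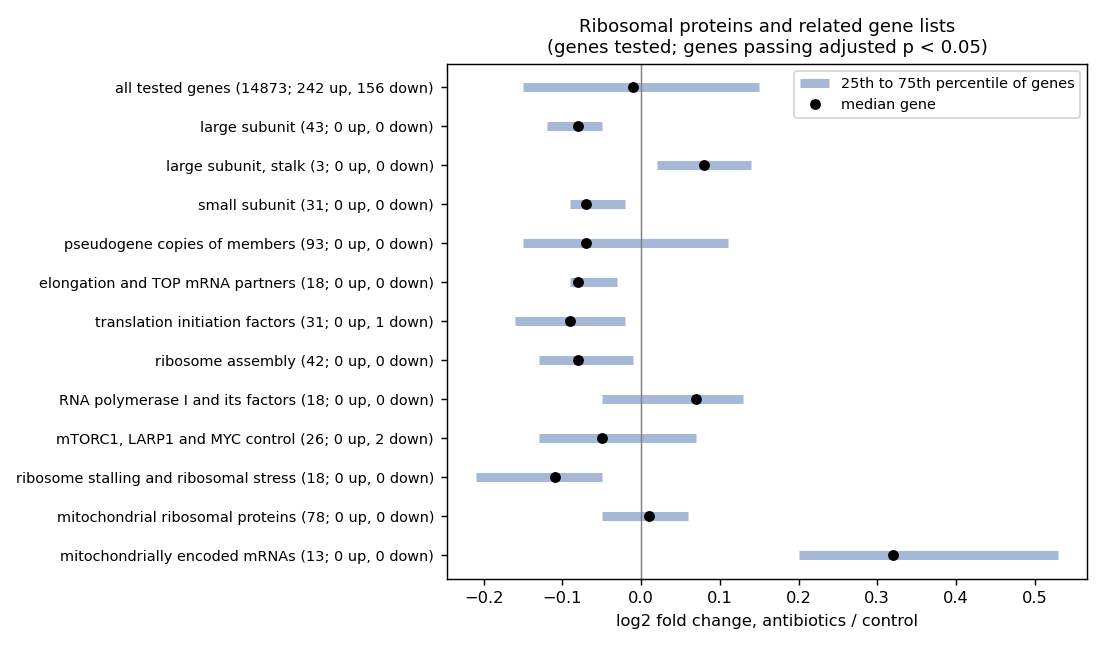
Median log2 fold change (points) and 25th to 75th percentile of genes (bars) for the ribosomal protein groups, their pseudogene copies, the related lists and all 14873 tested genes, with the number tested and passing beside each name. The bars of the large and small subunits are narrow and lie just below 0, and 0 of their genes passed.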

How the data were processed

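The authors deposited a table of estimated counts per gene, for which the submitters' processing notes name Salmon and GRCm38. Its values are whole numbers, so they had been rounded. Its version, settings, annotation release and use of strand were not given in the sources used here. Salmon shares reads that match several transcripts among them by estimation, which bears on genes with near-identical copies. Groups came from the labels. Genes were kept by filterByExpr of edgeR 4.0.16 (minimum count 10, minimum total 15) and fitted in R 4.3.3 with TMM factors and the quasi-likelihood F test, group as the only term, with Benjamini-Hochberg adjustment over 14873 genes (threshold 0.05). CPM use TMM-scaled totals. The SE is the size of the log2 fold change over the square root of F. The test was checked on simulated counts drawn separately for each gene, without the joint movement between libraries described above. Symbols, positions and transcripts are from GENCODE M21, in which all 54393 identifiers occur, and copies were found with BLAST+ 2.17.0. A copy not annotated as a pseudogene also needed 50% of its transcript aligned. The requirement of coding overlap was set after seeing the data. DESeq2 1.42.0 and limma-voom (limma 3.58.1) were alternatives.

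Named genes were the 6 members with the smallest p, the 3 highest and 3 lowest per length, the paralog pairs, the stalk, and up to 4 genes with the smallest p of each list. Rpl7, Rps6, Rpl10a, Rps12, Rpl11, Fau, Clec4f, the copies, the pancreas markers and the weakly correlated genes were added after seeing the values. The members and lists were chosen with earlier results of these data known. No libraries of a group agreed within sampling noise (chi-square over degrees of freedom at least 20.2), so all 9 were kept.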

Additional observations from a re-analysis of the deposited data

Results flagged for a closer look

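Among 46 groups of named-gene values, 3 had a library far from the others (Dixon's test at the 95% level, which chance gives in about 1 in 20 groups). For Rps2, control library 5 was at 598 CPM and the nearest control at 494. For Rplp0, control library 5 was at 458 CPM and the nearest control at 366. For Rpl10, antibiotics library 1 was at 75 CPM and the nearest antibiotics library at 57.3.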

How the results depend on the processing

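Under all 25 alternatives 0 ribosomal protein genes passed. Their median log2 fold change, -0.07 in the test reported, ran from -0.11 without antibiotics library 5 to -0.02 without control library 5. The lowest adjusted p was 0.0781, for Rpl24 with the transcript length trend removed. The number of all genes called, 398 in the test reported, was 625 with the GC trend removed, 975 by DESeq2, and 51 with both libraries numbered 5 left out (added after seeing the data). Leaving out 1 library at a time gave 36 to 455. Deviations of same-numbered libraries from their group means correlated weakly (-0.00218, -0.0565, 0.0322 and 0.103 for numbers 1, 2, 3 and 5). For numbers 3 and 5 the same-numbered control was the best match among the controls, and for 1 and 2 it was not. These values cannot tell whether the numbers pair the libraries. A replicate block on the 8 libraries that share a number gave 179 genes, and 144 without the block (added). That unpaired fit is the same as the fit without control library 4. The 25 alternatives and the 525 values below therefore count it more than once. Under the block the calls of Eif2s2, Sesn2 and Mycn were lost (edgeR adjusted p = 0.0893, 0.074 and 0.118). Of 21 named genes, 24 of 525 values changed sign, all of estimates that did not pass. Rpl12 (-0.01) became 0.01 with upper-quartile factors and with the GC trend removed, 0.11 with thinned libraries, 0.09 with the replicate block, 0.09 in those 8 libraries unpaired, 0.06 by limma-voom and 0.07 with both libraries numbered 5 left out. Rps27 became -0.25 with pseudogene counts summed in and -0.07 with all copies (added), and Rpl3 became 0.01 in both. Rpl10 became 0.05 with both libraries numbered 5 left out. With 1 library left out, the estimates ran from -0.12 to 0.10 for Rpl12 (above 0 without control 4 or 5 or antibiotics 2 or 3), from -0.11 to 0.03 for Rpl3 (above 0 without control 5 or antibiotics 1), from -0.24 to 0.02 for Rpl10 and from -0.10 to 0.03 for Rplp0 (both above 0 without control 5), from -0.09 to 0.01 for Rps18 (above 0 without antibiotics 2), from -0.01 to 0.09 for Rps2 (below 0 without control 3 or antibiotics 5) and from -0.01 to 0.24 for Rps4l (below 0 without antibiotics 1). The cause was not tested. The difference in the share of counts (antibiotics minus control) was -0.0362 percentage points. It was -0.0493 with pseudogenes, -0.0685 without the 10 most abundant genes and -0.0254 without mitochondrially encoded genes. The control SD of the share was 0.0701. Depth limits low rows such as Rps27 most: 3 counts are 0.195 CPM in the shallowest library and 0.0507 in the deepest.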
